A study of Mus musculus with 56 samples.

Results

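Spinal cord RNA of mice aged 14 weeks was compared between Chat bacTRAP; hTDP-43 A315T animals and, as controls, animals of the genotype Chat bacTRAP; hTDP-43 WT. The comparison takes every spinal cord library whose title gives one of these genotypes at this age, 4 of A315T and 5 of WT, and so 9 of the 56 libraries of the series. All mice carried the Chat bacTRAP transgene of line DW167, which tags ribosomes of Chat-expressing neurons with EGFP-L10a. The A315T mice (line 95Balo) also carried human TDP-43 with the A315T substitution found in patients, and the WT mice (line 3Cptrc) carried unmutated human TDP-43. Both TDP-43 transgenes run from the Prnp (prion protein) promoter, which is active in many cell types, so neither is limited to motor neurons. The study describes the mice as female, and per its methods each library is from a portion of cleared cord lysate kept before motor neuron ribosomes were pulled down (MN-TRAP). The A315T mice are described as early symptomatic at this age and the WT mice as free of symptoms, so the question is what differs in the cord when both genotypes overexpress human TDP-43. The substitution, the transgene line and the level of transgene expression cannot be told apart in this design. Chat bacTRAP mice without a TDP-43 transgene (n = 5) and the same genotypes at 9 weeks (A315T n = 5, WT n = 6) are shown beside these libraries where they help to read them.

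TDP-43 is an RNA-binding protein that leaves the nucleus and aggregates in motor neurons in most cases of amyotrophic lateral sclerosis. In the injured or degenerating spinal cord, microglia leave their resting state and take up a phagocytic, lipid-handling program that depends on the receptor Trem2 and its adaptor Tyrobp, and astrocytes raise intermediate filaments, protease inhibitors and complement. Serpina3n encodes a secreted serine protease inhibitor made mainly by reactive astrocytes and, in disease, oligodendrocytes. Lgals3 encodes galectin-3 and Cst7 the lysosomal protease inhibitor cystatin F, both typical of phagocytic microglia. In bulk RNA, more cells of a type and more RNA per cell cannot be told apart.

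The promoter windows of the 3 markers, and of Itgax and Gpnmb from the same microglial program, are shown because these genes moved together. Each runs from 250 bases before to 50 bases after the RefSeq start (GRCm38.p6), on the + strand at chr12:104406458-104406757 for Serpina3n, chr14:47373610-47373909 for Lgals3, chr2:150570165-150570464 for Cst7, chr7:128129300-128129599 for Itgax and chr6:49036268-49036567 for Gpnmb. Capitals mark a match to the AP-1 letters TGANTCA.
Serpina3n: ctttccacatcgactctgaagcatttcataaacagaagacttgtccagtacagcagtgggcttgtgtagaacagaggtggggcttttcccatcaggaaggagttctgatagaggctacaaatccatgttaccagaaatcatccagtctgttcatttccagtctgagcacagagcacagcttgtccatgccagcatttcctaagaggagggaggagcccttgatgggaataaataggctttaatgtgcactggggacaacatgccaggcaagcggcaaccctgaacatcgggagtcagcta
Lgals3: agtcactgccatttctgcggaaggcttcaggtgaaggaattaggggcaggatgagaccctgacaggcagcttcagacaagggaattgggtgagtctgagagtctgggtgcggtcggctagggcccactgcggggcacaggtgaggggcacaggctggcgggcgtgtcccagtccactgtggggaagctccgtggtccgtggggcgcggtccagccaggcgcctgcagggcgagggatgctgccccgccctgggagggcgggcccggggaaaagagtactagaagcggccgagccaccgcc
Cst7: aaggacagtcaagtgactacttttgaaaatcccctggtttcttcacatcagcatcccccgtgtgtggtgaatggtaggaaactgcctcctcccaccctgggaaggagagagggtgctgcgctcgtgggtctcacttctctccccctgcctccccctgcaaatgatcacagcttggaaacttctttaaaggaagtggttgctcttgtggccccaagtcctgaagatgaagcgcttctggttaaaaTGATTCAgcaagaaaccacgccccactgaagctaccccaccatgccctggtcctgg
Itgax: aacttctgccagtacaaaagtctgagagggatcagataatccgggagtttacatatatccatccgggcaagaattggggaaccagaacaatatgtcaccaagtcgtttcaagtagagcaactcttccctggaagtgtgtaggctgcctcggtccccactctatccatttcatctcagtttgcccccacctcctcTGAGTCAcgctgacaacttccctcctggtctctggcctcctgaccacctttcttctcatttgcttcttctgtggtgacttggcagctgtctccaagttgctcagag
Gpnmb: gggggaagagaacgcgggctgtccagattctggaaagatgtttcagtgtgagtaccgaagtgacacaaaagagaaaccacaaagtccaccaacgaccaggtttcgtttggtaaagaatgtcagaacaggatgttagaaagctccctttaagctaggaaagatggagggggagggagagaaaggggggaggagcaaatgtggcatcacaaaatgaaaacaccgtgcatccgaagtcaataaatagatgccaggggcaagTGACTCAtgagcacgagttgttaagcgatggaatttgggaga
The AP-1 letters, read on both strands, begin at position -6 from the start in Cst7, at -56 in Itgax and at 8 in Gpnmb, and are not in the windows of Serpina3n and Lgals3. Of the 40 genes called below, 32 had a window, and the AP-1 letters were in 5 of these (15.6%: Cd68, Cst7, Cxcl10, Gpnmb and Itgax), against 5.34% of the windows of all genes tested. The letters GAGGAAGT, bound by the myeloid factor SPI1 (PU.1), were in 2 of the 32 (6.25%, Mmp12 and S100a4) against 2.87%. The STAT letters TTCNNNGAA were in 1 (3.12%, Socs3) against 6.77%. No match of one motif overlaps a match of another in the windows printed here. These shares describe letters only and were not tested.

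The A315T libraries held 42261045 to 76878108 counts and the WT libraries 37572334 to 49697590, and single genes are given as normalized counts, the deposited counts divided by a size factor for each library. Lamr1-ps1, a processed pseudogene at 25.3 or more in the 9 cord libraries of the A315T line and at 1.10 or less in all other cord libraries, divided the 9 libraries compared here as their labels do. The labels give the tissue as cervical cord, but Hoxc10 and Hoxd10, genes of lumbar segments, were counted in every library (Hoxc10 1220 to 1462 in A315T and 1418 to 1879 in WT, Hoxd10 415 to 523 and 503 to 775), and the tissue is therefore called spinal cord here. Libraries stood apart in 3 ways. A315T replicate 1 held cerebellar transcripts, A315T replicates 1 and 4 held transcripts of sensory ganglia, and WT replicate 3 had the highest microglial and mitochondrially encoded levels of the WT libraries. The counts of called genes, and the genes whose call turns most plainly on one of these libraries, are given with and without it. Since WT replicate 3 was singled out for its high microglial levels, leaving it out enlarges microglial differences by construction and is no independent support.

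At 14 weeks, A315T cord carried more RNA of activated microglia and reactive astrocytes than WT cord, and no gene was lower by the same edgeR rule. Of 18178 genes tested, 40 (0.22%) passed an edgeR adjusted p below 0.05 with a change of at least 2-fold, and all 40 were higher in A315T. None (0%) was lower by this rule, although 1341 genes (7.38%) were lower and 837 (4.6%) higher at an unadjusted p below 0.05. The absence of lower genes depended on the method: at the same limits DESeq2 called 6 lower and 61 higher, and limma-voom with quality weights 119 lower and 236 higher. The adjusted p alone was passed by 58 genes (0.319%), of which 54 were higher and 4 lower. In 36 of the 40 called genes every A315T library lay above every WT library in CPM, an order that 2.95% of all genes tested showed. The 40 were selected by a test on the same libraries, so this order is no independent support. A315T replicate 4 was the highest of the 4 A315T libraries in 32 of the 40, and the share of this over all genes was not computed. The median log2 change of all genes was -0.01. Without A315T replicate 4 the count was 22, without A315T replicates 1 and 4 it was 12, and without WT replicate 3 it was 69.

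**Figure D1:**
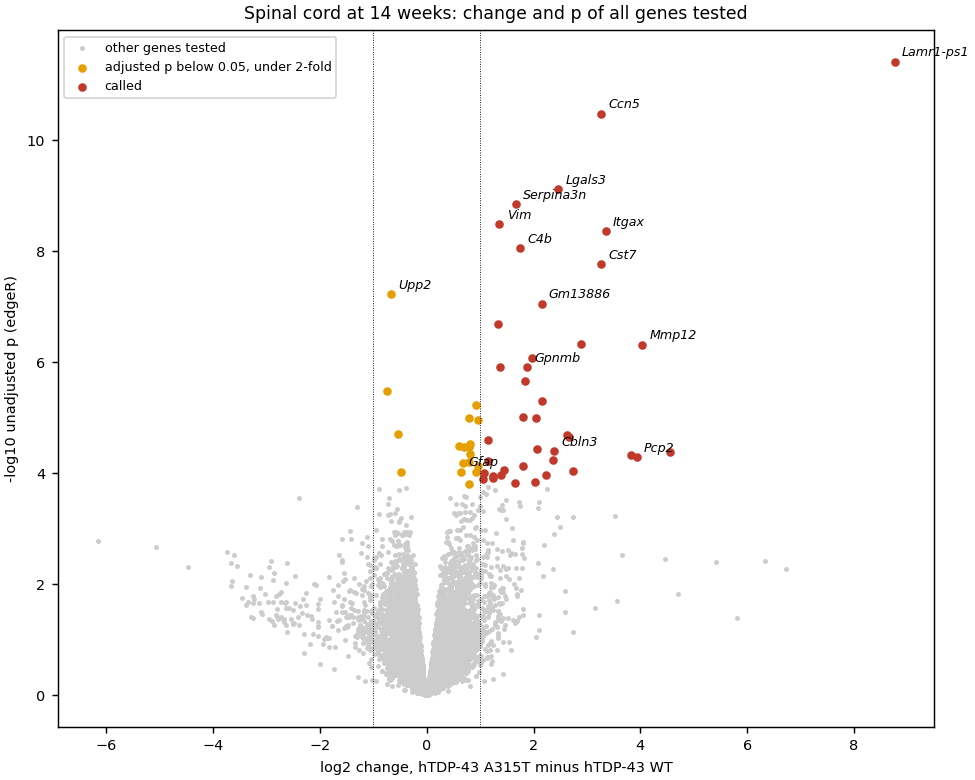
Log2 change of A315T minus WT cord at 14 weeks (x) against -log10 of the unadjusted edgeR p (y) for the 18178 genes tested. Red points are the 40 called genes, orange points passed the adjusted p at under 2-fold, and dotted lines mark 2-fold. All red points lie on the right, and the 4 orange points on the left include Upp2.

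The 3 markers showed the pattern most plainly. Lgals3 was at 698, 727, 981 and 1224 normalized counts in A315T replicates 1 to 4 and at 145, 139, 278, 93.9 and 159 in WT replicates 1 to 5, a log2 change of 2.46 ± 0.28 (SE, as after every log2 change, 5.49-fold, edgeR adjusted p = 4.63e-06). The lowest A315T library stood well above the highest WT library, replicate 3. Serpina3n was at 2991, 4065, 3794 and 8001 in A315T and at 1343, 1428, 1825, 1308 and 1394 in WT (log2 change 1.67 ± 0.19, 3.18-fold, edgeR adjusted p = 6.51e-06). Here A315T replicate 4 was far above the other 3, and the groups did not overlap with or without it. Cst7, far less abundant, was at 76.6, 34.9, 45.8 and 100 in A315T and at 10.4, 3.42, 5.33, 7.23 and 5.92 in WT (log2 change 3.26 ± 0.43, 9.58-fold, edgeR adjusted p = 3.96e-05). When any 1 of the 9 libraries, or A315T replicates 1 and 4 together, was left out, these log2 changes ran from 2.30 to 2.71 for Lgals3, from 1.31 to 1.86 for Serpina3n and from 2.59 to 3.5 for Cst7, and each gene stayed called.

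**Figure D2:**
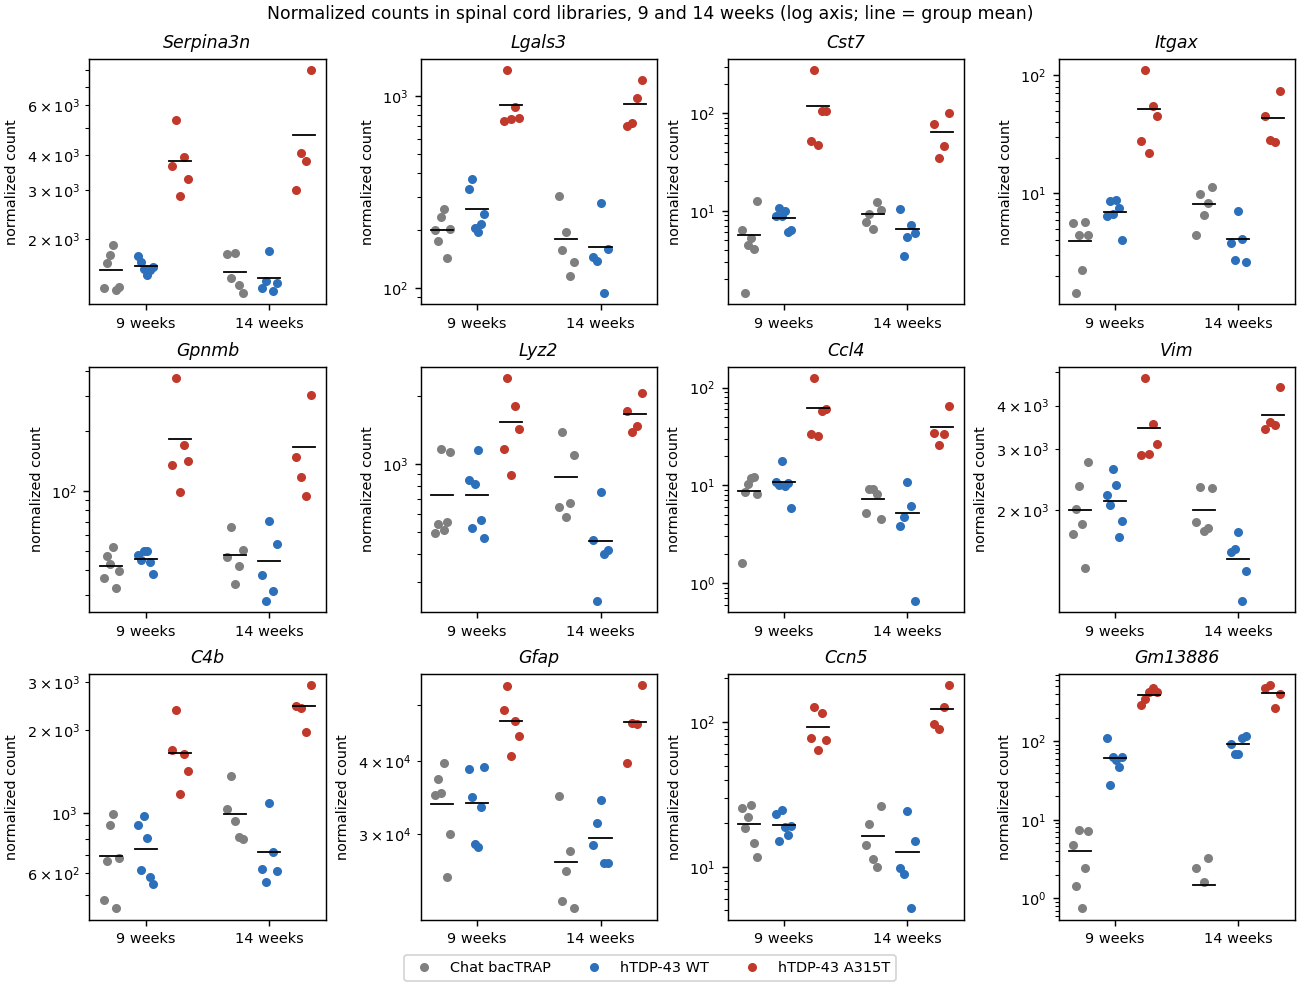
Normalized counts (log axis) of 12 genes in each spinal cord library at 9 and 14 weeks, with Chat bacTRAP in grey, hTDP-43 WT in blue and hTDP-43 A315T in red, and a line at each group mean. Libraries at 0 are not drawn. At 14 weeks the red points of all 12 genes lie above the blue points, with Serpina3n of A315T replicate 4 at 8001.

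Part of the disease-associated microglial program rose. Of 29 members tested, 9 were called, all higher, against 0.22% of all genes, and the median log2 change of the list was 0.48. This list, like the others here, was written with earlier results of these data known, and it holds the markers Lgals3 and Cst7. Such shares describe the lists and are no test. The called members are Lgals3, Cst7, Itgax (the integrin CD11c), Ccl3 and Ccl4 (chemokines that attract leukocytes), Gpnmb (a lysosomal membrane glycoprotein), Lyz2 (lysozyme), Clec7a (the beta-glucan receptor dectin-1) and Cd68 (a lysosomal protein of phagocytes). Itgax was at 44.7, 28.1, 27.3 and 73.3 in A315T and at 3.82, 2.73, 7.10, 4.13 and 2.63 in WT (log2 change 3.35 ± 0.41, edgeR adjusted p = 1.32e-05). Ccl4 was at 34.5, 26.0, 33.9 and 65.3 in A315T and at 3.82, 4.78, 10.7, 6.19 and 0.658 in WT (log2 change 2.89 ± 0.45, edgeR adjusted p = 0.000682). In both genes A315T replicate 4 was highest, WT replicate 3 was the highest of the WT libraries, and no libraries overlapped. Gpnmb was at 149, 118, 94.5 and 303 in A315T and at 37.7, 28.0, 70.5, 31.5 and 53.9 in WT (log2 change 1.88 ± 0.31, edgeR adjusted p = 0.00141). Lyz2 changed by 1.84 ± 0.32, Ccl3 by 2.05 ± 0.39 and Clec7a by 2.06 ± 0.43 on the log2 scale, and none of the 3 overlapped between the groups. Cd68 did overlap, since WT replicate 3 (207) lay above A315T replicate 2 (192). Cd68 kept its call in only 6 of 18 alternative fits, and Clec7a in 12. The number of members called was 6 without A315T replicate 4, 3 without A315T replicates 1 and 4, and 11 without WT replicate 3.

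The upstream pair of this program was less clear. Trem2 was at 519, 320, 480 and 624 in A315T and at 199, 213, 469, 231 and 164 in WT (log2 change 0.91 ± 0.27, edgeR adjusted p = 0.204), and Tyrobp at 492, 375, 580 and 672 against 182, 240, 458, 245 and 182 (1.00 ± 0.25, edgeR adjusted p = 0.0854). In both, 1 WT library, replicate 3, reached into the A315T range. Without it the log2 changes were 1.23 for Trem2 (edgeR adjusted p = 0.0173) and 1.28 for Tyrobp (edgeR adjusted p = 0.00625), and both genes were called. Replicate 3 was singled out for its high microglial levels, so these larger changes follow from its omission and are no added support. Apoe, which encodes the lipid carrier apolipoprotein E, was at 20949 to 34736 in A315T and at 11945 to 43749 in WT, with the highest value again in WT replicate 3, without which its log2 change was 0.74 (edgeR adjusted p = 0.168). Genes of resting microglia gave no call: of 18 tested, 0 passed the adjusted p and 3 were higher at an unadjusted p below 0.05, with a median log2 change of 0.16. Among them Fcrls changed by 0.70 ± 0.24, Aif1 (the pan-microglial protein Iba1) by 0.71 ± 0.26, Slco2b1 by 0.50 ± 0.21 and Mef2c, a transcription factor of resting microglia, by -0.36 ± 0.19. The mean log2 CPM over the disease-associated list was 4.56 to 5.14 in A315T and 3.61 to 4.30 in WT without overlap, while that over the resting list was 4.25 to 4.56 and 3.97 to 4.58 with overlap.

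Several other called genes are known from macrophages or other immune cells. Mmp12, macrophage elastase, was at 31.6, 19.3, 13.1 and 40.4 in A315T and at 0.546, 0, 2.96, 3.61 and 0 in WT (log2 change 4.03 ± 0.63, edgeR adjusted p = 0.000682). Every A315T library lay above every WT library, although the WT values rest on few counts. Capg, an actin-capping protein of macrophages, was at 304 to 424 against 116 to 176 (1.33 ± 0.20), and Myo1f, a myosin of immune cells, at 138 to 210 against 38.8 to 90.6 (1.37 ± 0.23). Ms4a7, a gene of tissue macrophages, rose by 2.37 ± 0.51, the cannabinoid receptor Cnr2 by 2.16 ± 0.39, the interferon-inducible nuclear body gene Sp110 by 2.67 ± 0.53, Cd300lb, an activating receptor of myeloid cells, by 2.73 ± 0.60, the lysosomal peptide transporter Slc15a3 by 1.39 ± 0.31, the inhibitory receptor Pdcd1 (PD-1, known mainly from T cells) by 2.23 ± 0.50 and the fatty acid hydroxylase Cyp4f18 by 2.03 ± 0.47. Gm49339, a predicted gene on chromosome 10, rose by 2.62 ± 0.52. These genes lay at or below 36.7 normalized counts except Slc15a3 (up to 109), and Pdcd1, Cyp4f18, Ms4a7, Slc15a3 and Cd300lb kept their call in only 4 to 7 of 18 alternative fits. A further 8 genes known from immune cells passed the adjusted p at under 2-fold: Nckap1l (0.80 ± 0.15), Irf8 (0.96 ± 0.18), Plcg2 (0.70 ± 0.14), Cyth4 (0.80 ± 0.16), Dock2 (0.79 ± 0.17), Tec (0.68 ± 0.15), Vav1 (0.93 ± 0.21) and Arpc1b (0.92 ± 0.17). In immune cells they carry signals from receptors to the actin cytoskeleton or, for Irf8, set the transcription program of microglia. Dock2 was higher in MN-TRAP (255 to 282 in A315T, 165 to 308 in WT) than in cord (130 to 165 and 78.6 to 92.7). Plcg2, at 97.4 to 311 and 139 to 458 in MN-TRAP, was not depleted there either. Which cells gave the RNA of these 2 genes was not tested.

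Some genes of reactive astrocytes rose as well. Of 37 members tested, 5 were called and 7 passed the adjusted p, all higher, against 0.22% of all genes called, and the median log2 change of the list was 0.64 beside -0.01 for all genes. The list holds the marker Serpina3n and was also written with earlier results known, so its share is no test. Vim, the intermediate filament vimentin, was at 3419, 3589, 3517 and 4540 in A315T and at 1516, 1545, 1730, 1094 and 1334 in WT (log2 change 1.36 ± 0.17, edgeR adjusted p = 1.2e-05). Complement component C4b was at 2464, 2417, 1979 and 2918 in A315T and at 625, 557, 1082, 716 and 612 in WT (1.75 ± 0.22, edgeR adjusted p = 2.31e-05). All A315T libraries exceeded all WT libraries in both genes, and WT replicate 3 was again the highest of its group. C4b has a near-identical copy, C4a, so its reads may be divided between both. Cxcl10, a chemokine induced by interferon, rose by 1.80 ± 0.34 and Timp1, an inhibitor of metalloproteases, by 1.65 ± 0.38 (Timp1 edgeR adjusted p = 0.0472). Timp1 kept its call in only 8 of 18 alternative fits and lost it when any 1 A315T library was left out. Gfap, the filament used to stain astrocytes, was at 39766, 46643, 46468 and 54088 in A315T and at 28757, 31264, 34308, 26686 and 26717 in WT. Its libraries did not overlap, and its 1.56-fold change (log2 change 0.64 ± 0.14, edgeR adjusted p = 0.0356) is below the 2-fold limit. The sphingosine phosphate receptor S1pr3 changed by 0.82 ± 0.17 (edgeR adjusted p = 0.0187). Lcn2, lipocalin-2, overlapped (54.2 to 107 against 32.9 to 67.2), with an edgeR adjusted p of 0.572. Identity genes of astrocytes gave 0 calls among 20, with a median of -0.18, and Aldh1l1 changed by 0.43 ± 0.16 without passing the test. The number of reactive members called was 3 without A315T replicate 4, 3 without A315T replicates 1 and 4, and 6 without WT replicate 3.

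**Figure D3:**
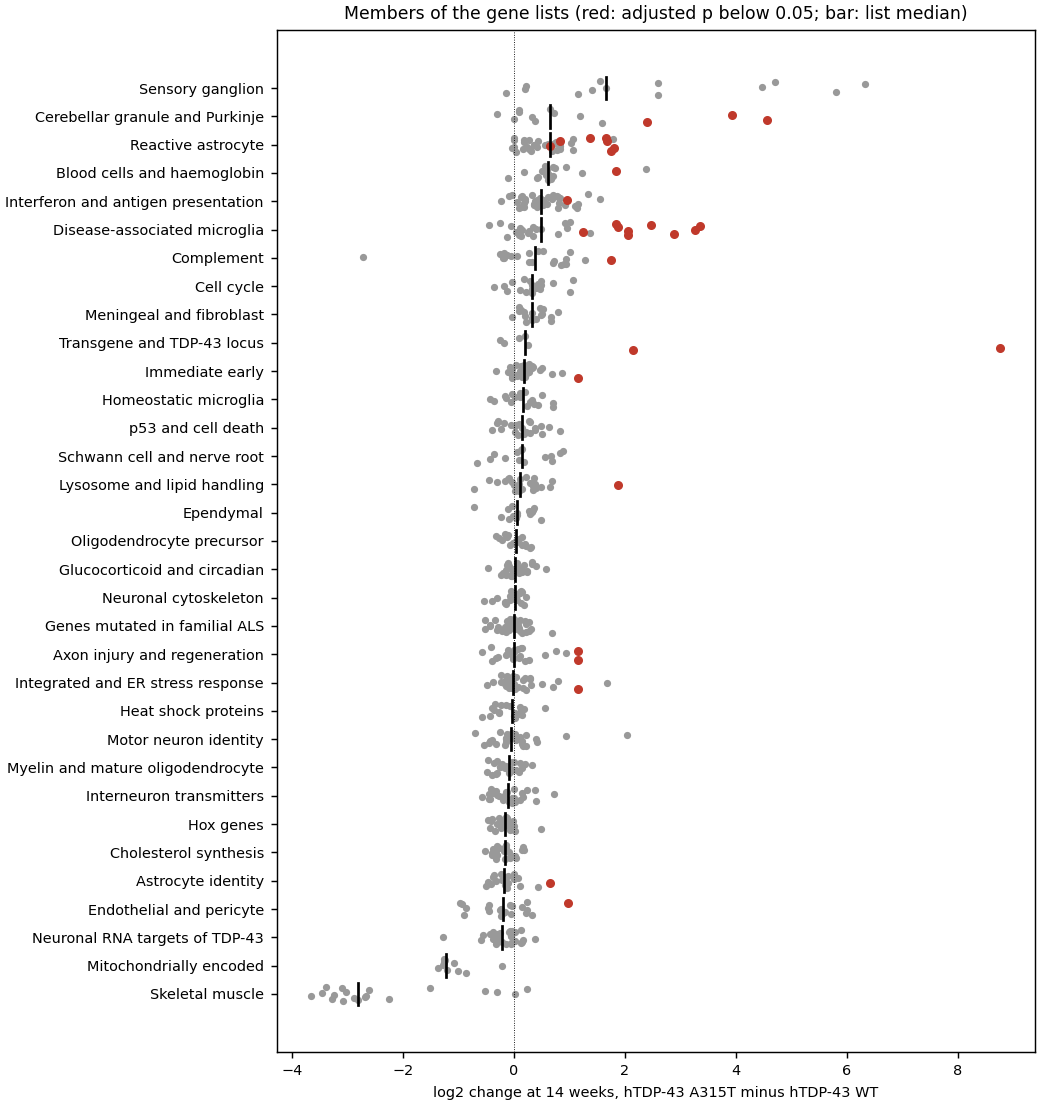
Log2 change of A315T minus WT cord at 14 weeks for the tested members of each gene list (points), with list medians as bars and members of adjusted p below 0.05 in red. The disease-associated microglia and reactive astrocyte lists hold 9 and 7 red points, and the skeletal muscle list has the lowest median, -2.82, with no red point.

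The remaining immune lists held fewer called genes. In the complement list 1 of 22 members tested was called, C4b, and the median was 0.38. C3 was at 1113 to 1309 in A315T and at 530 to 885 in WT without overlap (0.72 ± 0.18, edgeR adjusted p = 0.0854), C3ar1, the receptor of its fragment C3a, at 87.4 to 130 against 28.0 to 63.3 (1.28 ± 0.30, edgeR adjusted p = 0.0585), and Itgb2, a subunit of complement receptor 3, at 105 to 214 against 54.7 to 120 (1.01 ± 0.28, edgeR adjusted p = 0.151). Of 40 interferon and antigen presentation genes 0 were called and Irf8 alone passed the adjusted p, although the median was 0.48 and 10 members were higher in every A315T library, against 2.95% of all genes. Cd74, the invariant chain of class II molecules, was at 678 to 929 in A315T and at 209 to 738 in WT (2.21-fold, edgeR adjusted p = 0.231). H2-Aa, a class II chain, changed by 1.11 ± 0.34 (edgeR adjusted p = 0.235) and the immunoproteasome subunit Psmb8 by 0.82 ± 0.26 (edgeR adjusted p = 0.247). Without WT replicate 3, Itgb2 (1.21, edgeR adjusted p = 0.0436), Cd74 (1.53, edgeR adjusted p = 0.0302) and H2-Aa (1.44, edgeR adjusted p = 0.0441) were called. That library held the highest WT value of each, so its omission enlarges their changes by construction. In the lysosome and lipid list Gpnmb was the 1 member of 27 called, and Plin2, which coats lipid droplets, was at 493 to 574 in A315T and at 395 to 418 in WT without overlap (0.36 ± 0.10, edgeR adjusted p = 0.189). Laptm5 changed by 0.69 ± 0.25 and the protease Ctsz by 0.48 ± 0.19 without passing. In the list of blood cells and haemoglobin, with a median of 0.61, only Lyz2, which microglia also express, was called among 19 tested. Its mean log2 CPM was 1.88 to 2.39 in A315T and 1.06 to 1.84 in WT without overlap at 14 weeks, and 1.44 to 2.84 and 1.74 to 2.49 with overlap at 9 weeks, and its part in the microglial differences was not tested.

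The rest of the called genes included secreted and calcium-binding proteins, a filament and transcriptional regulators. Ccn5, a secreted matricellular protein also named Wisp2, was at 97.6, 89.6, 126 and 179 in A315T and at 9.83, 8.88, 24.3, 5.16 and 15.1 in WT (log2 change 3.26 ± 0.32, edgeR adjusted p = 3.04e-07). The groups were far apart, and the gene stayed called in all 18 alternative fits. S100a4, a calcium-binding protein of motile cells, was at 105 to 258 in A315T and at 63.4 or less in WT (1.98 ± 0.32), and S100a6 at 1553 to 2665 against 721 to 1414 (1.08 ± 0.24). Nes, the filament nestin of progenitors and reactive astrocytes, was at 178, 215, 206 and 306 in A315T and at 98.8, 87.4, 164, 96.0 and 88.1 in WT (1.06 ± 0.24, edgeR adjusted p = 0.0428). Atf3, a stress-induced transcription factor of injured neurons, was at 103, 93.3, 92.7 and 151 against 44.8, 30.1, 46.2, 41.8 and 79.6 (1.15 ± 0.25, edgeR adjusted p = 0.0274). Socs3, which restrains JAK-STAT signals, rose by 1.15 ± 0.23. Both belong to the axon injury list, in which these 2 of 25 members were called, against 0.22% of all genes, and the median was -0.01. With A315T replicate 4 left out neither was called. Of 18 alternative fits, S100a4 kept its call in 17, Socs3 in 11, Atf3 in 10, S100a6 and Gm37800 in 8, Bcl3 and Klk9 in 7, Nes in 6 and Prss30 in 5, and Nes lost it when any 1 A315T library was left out. Ngfr, the p75 neurotrophin receptor, was at 291, 162, 122 and 278 against 84.0 to 147 (0.94 ± 0.30, edgeR adjusted p = 0.246), and its highest values were in A315T replicates 1 and 4. Hspb1, a small heat shock protein, changed by 0.56 ± 0.22 and the stress cytokine Gdf15 by 1.67 ± 0.55 without passing. In the other stress lists Atf3 was the 1 member called, of 35 genes of the integrated and ER stress response (median -0.02) and of 28 immediate early genes (0.18), and 0 were called of 20 heat shock proteins (-0.04), 23 genes of p53 and cell death (0.15) and 19 of the cell cycle (0.33). Bcl3 (an NF-kB regulator, 1.44 ± 0.32), the proteases Klk9 (1.80 ± 0.39) and Prss30 (1.24 ± 0.28), and the predicted gene Gm37800 (3.82 ± 0.80, at or below 10.3 normalized counts) were also called. Tagln2 (0.79 ± 0.18), Tagln (0.97 ± 0.21), Anxa3 (0.81 ± 0.17) and Pgm5 (0.60 ± 0.12) passed the adjusted p at under 2-fold.

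**Figure D4:**
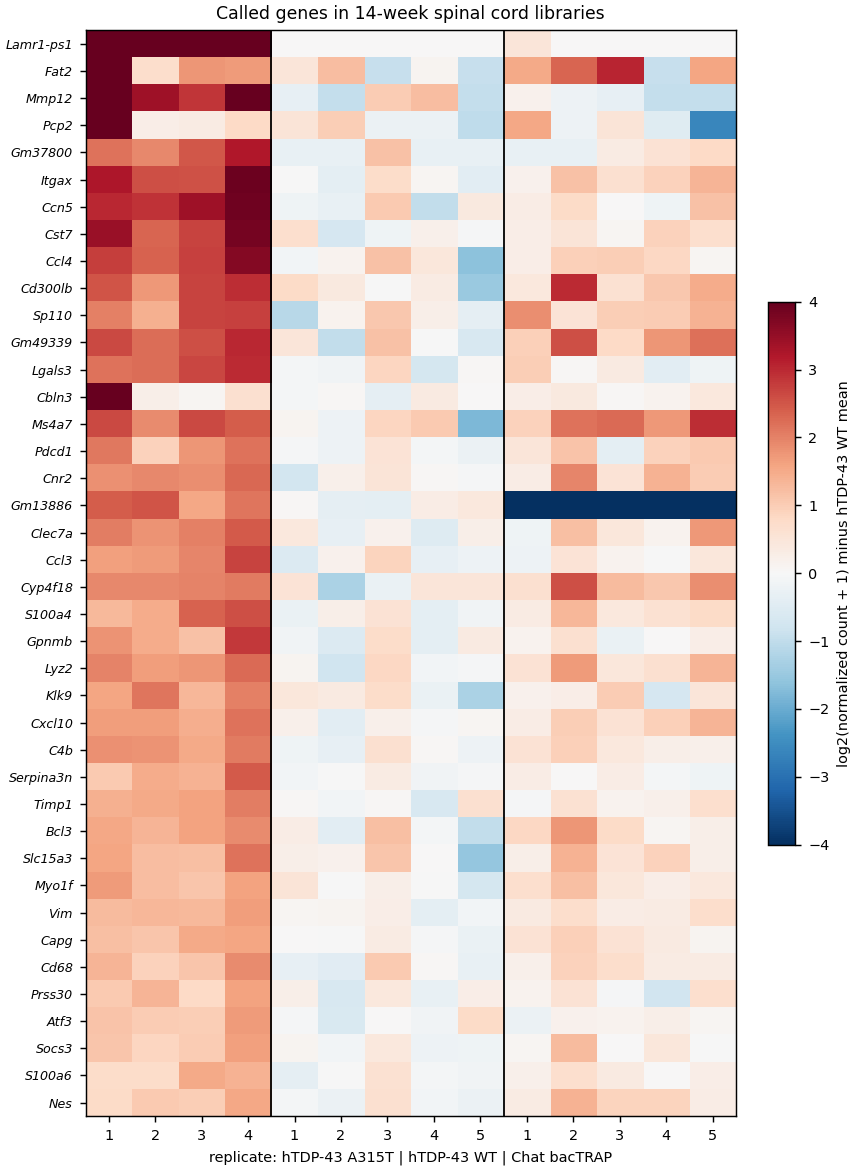
Log2(normalized count + 1) minus the WT mean for the 40 called genes (rows, by log2 change) in the 14-week spinal cord libraries (columns, by replicate, with A315T left, WT middle and Chat bacTRAP right). Red is above and blue below the WT mean, with colors ending at 4. Cbln3, Fat2 and Pcp2 are far above the WT mean in A315T replicate 1 alone, and Gm13886 separates all 3 genotypes.

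Cerebellar genes were far higher in 1 A315T library than in any other. Cbln3, a cerebellin of granule cells, was at 664, 44.3, 39.8 and 58.3 in A315T and at 29.0 to 48.5 in WT (log2 change 2.39 ± 0.50, edgeR adjusted p = 0.0214). Pcp2, a Purkinje cell protein, was at 333, 6.25, 6.54 and 9.40 against 1.97 to 10.9, and Fat2, a cadherin of granule cells, at 106, 2.08, 5.35 and 5.17 against 0 to 3.42. Gabra6, a granule cell receptor subunit that missed the filter on low counts, was at 244 in A315T replicate 1 and at 0 to 4.78 in the other 8 libraries. None of these 3 called genes stayed called without A315T replicate 1, and the log2 changes were then 0.33 for Cbln3, 0.37 for Pcp2 and 1.75 for Fat2, which is at few counts (edgeR adjusted p 0.660 to 0.832). A list of cerebellar genes written after these values were seen averaged 4.77 log2 CPM in that library and 2.35 to 2.85 in the other 8. Without A315T replicate 1 the number of called genes was 28, of which 26 were among the 40, and the 9 microglial and 5 astrocytic calls became 8 and 4. Genes of sensory ganglia, in another list written after values were seen, averaged 1.81 and 0.96 in A315T replicates 1 and 4 and -1.10 to -0.56 in the other 7. None of its 13 members was called. Whether carried-over tissue took part in other differences of these libraries was not tested.

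Pseudogenes on chromosome 2 separated the genotypes. Lamr1-ps1 (chromosome 2, 131904086 to 131904959, + strand, GRCm38) was at 30.0, 35.4, 28.5 and 37.1 normalized counts in A315T and at 0 in all 5 WT libraries. With 289 reads in A315T and a floor of 3 reads over the WT group, it was at least 96.0-fold higher (edgeR adjusted p = 7.08e-08). Its end lies 4969 bases before the start of Prnp, the gene whose promoter drives both transgenes. Gm13886 (chromosome 2, 104820179 to 104821361, + strand) was at 480, 514, 262 and 398 in A315T, at 91.7, 68.3, 68.1, 109 and 118 in WT and at 0 to 3.30 in Chat bacTRAP, and was 4.45-fold higher in A315T than in WT (log2 change 2.15 ± 0.31, edgeR adjusted p = 0.00016). Both are processed pseudogenes, and reads of other loci with the same sequence could be assigned to them. Whether the higher Gm13886 level in A315T reflects a higher transgene level than in WT was not tested. Prnp itself was at 21743 to 25865 in A315T and at 17351 to 20494 in WT without overlap (0.25 ± 0.11, edgeR adjusted p = 0.404), and mouse Tardbp at 3029 to 3747 and 2329 to 3735 with overlap (0.19 ± 0.13).

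The 4 genes that passed the adjusted p in the lower direction were all under 2-fold. Upp2, a uridine phosphorylase, was at 754, 722, 601 and 641 in A315T and at 1135, 1023, 947, 948 and 1214 in WT (log2 change -0.66 ± 0.09, edgeR adjusted p = 0.000122). Clns1a, which encodes the pICln subunit of the complex that methylates Sm proteins, was at 1301, 1257, 1681 and 1215 against 2328, 2436, 2197, 2175 and 2043 (-0.74 ± 0.13, edgeR adjusted p = 0.00338). The highest A315T value was below the lowest WT value in both. Brwd1, a bromodomain protein, was at 2139 to 2392 against 2818 to 3729 (-0.54 ± 0.11), and the noncoding D230017M19Rik at 168 to 198 against 218 to 280 (-0.48 ± 0.11), also without overlap. Of these 4 only Upp2 kept an adjusted p below 0.05 under every omission of libraries (highest edgeR adjusted p 0.00878).

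The lists of motor neurons, interneurons and neuronal TDP-43 targets held no called gene. Of 27 motor neuron identity genes 0 passed the adjusted p, with 6 lower and 1 higher at an unadjusted p below 0.05 and a median of -0.06. Chat, the acetylcholine-synthesizing enzyme of motor neurons, was at 733, 817, 436 and 767 in A315T and at 661, 510, 414, 734 and 710 in WT (log2 change 0.15 ± 0.31), and Mnx1, their transcription factor HB9, changed by -0.10 ± 0.15. Calca, the CGRP precursor of motor and sensory neurons, was at 1262, 1227, 1729 and 1246 against 1667 to 2097 (-0.54 ± 0.16, edgeR adjusted p = 0.184), with A315T replicate 3 inside the WT range. The choline transporter Slc5a7 changed by -0.70 ± 0.31 and Foxp1, a factor of limb motor neurons, by -0.39 ± 0.13 without passing. Among 28 transmitter genes of interneurons 0 were called and the median was -0.11, with Slc17a6 (the glutamate transporter VGLUT2) at -0.46 ± 0.18, Grp at -0.44 ± 0.17 and Nts at -0.58 ± 0.23. Of 33 RNAs in the list of neuronal TDP-43 targets 0 were called. In this list 26 were below zero, beside 9267 of all 18178 genes tested, and the median was -0.22 beside -0.01 for all genes. Nrxn3, a presynaptic adhesion protein, changed by -0.43 ± 0.19, Lsamp by -0.34 ± 0.14, Nefl (the light neurofilament) by -0.30 ± 0.09, and Malat1, a nuclear noncoding RNA, by -1.28 ± 0.59. Of 36 genes mutated in familial forms of the disease 0 were called (median -0.01), and 0 of 23 genes of the neuronal cytoskeleton were called, with 11 below zero and a median of 0.01.

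Oligodendrocyte and lipid synthesis genes also stayed below the threshold. Of 26 myelin genes 0 were called, 6 were lower at an unadjusted p below 0.05 and the median was -0.10, with Mobp at -0.26 ± 0.11, Aspa at -0.33 ± 0.14, Ermn at -0.49 ± 0.20 and Anln at -0.40 ± 0.18. Of 24 genes of cholesterol synthesis 0 were called, 19 were below zero and the median was -0.17. Nsdhl, a sterol dehydrogenase of this path, was at 813, 890, 919 and 947 in A315T and at 1060, 1109, 1305, 1093 and 1155 in WT, and just missed the threshold (-0.38 ± 0.09, edgeR adjusted p = 0.0556). Msmo1 changed by -0.52 ± 0.16, Hmgcs1 by -0.39 ± 0.15 and Insig1 by -0.32 ± 0.12 without passing. Hox genes, which mark position along the cord, were below zero in 22 of 25 members with 0 calls (Hoxa9 -0.44 ± 0.14, Hoxc8 -0.41 ± 0.14, Hoxd10 -0.47 ± 0.18, Hoxc10 -0.31 ± 0.12). Over all genes tested, 9267 of 18178 were below zero. Of the 25 Hox genes, 5 were lower in every A315T library, against 2.11% of all genes. Whether the groups differed in cord level was not tested.

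Skeletal muscle genes had a median of -2.82 with 0 of 19 called and 13 lower at an unadjusted p below 0.05. Mylpf, a fast muscle myosin light chain, was at 229, 153, 70.7 and 48.4 in A315T and at 1414, 501, 116, 2133 and 890 in WT, and so varied over 10-fold within WT. Myh1 (-3.66 ± 1.34), Car3 (-2.26 ± 0.87) and Actn3 (-2.82 ± 1.10) had wide ranges in WT too. The mitochondrially encoded share of counts was 1.45% ± 0.275 (SD, n = 4) in A315T and 2.95% ± 1.32 (SD, n = 5) in WT, with ranges of 1.08 to 1.72% and 2.09 to 5.27%, or 2.09 to 2.70% in WT without replicate 3 (all 9 libraries, exact permutation test, two-sided, p = 0.0159, which is the smallest that 126 arrangements allow here). In Chat bacTRAP it reached 8.53%, and the lowest library lay within the A315T range. Of 10 mitochondrially encoded genes tested 0 were called and 7 were lower in every A315T library, against 2.11% of all genes, with mt-Nd1 at -1.21 ± 0.56 and mt-Nd2 at -1.38 ± 0.63. Endothelial and pericyte genes had a median of -0.20 with 0 of 21 called. Tagln, a smooth muscle gene in this list, passed the adjusted p in the higher direction, and the pericyte channel subunit Abcc9 was at 60.6 to 80.4 in A315T and at 78.6 to 174 in WT (-0.91 ± 0.33, edgeR adjusted p = 0.321). Meningeal genes had a median of 0.33 with 0 of 18 called, Schwann cell genes 0.13 with 0 of 14, and ependymal genes 0.05 with 0 of 15.

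The same comparison at 9 weeks gave 31 genes higher (0.171%) and 4 lower (0.022%), and no gene changed with age by the test of the difference (0 of 18178 by edgeR, 453 at an unadjusted p below 0.05, and 1 by DESeq2). Lgals3 was at 746 to 1369 in A315T and at 197 to 369 in WT at 9 weeks (log2 change 1.79 ± 0.25), Serpina3n at 2856 to 5340 and 1494 to 1739 (1.25 ± 0.18), and Cst7 at 47.7 to 275 and 6.04 to 10.7 (3.80 ± 0.39). No A315T library overlapped with WT in any of the 3. In the disease-associated microglia list 9 members were called at 9 weeks as at 14 weeks, and in the reactive astrocyte list 3 against 5, with list medians of 0.30 and 0.27 against 0.48 and 0.64. Vim went from 0.70 ± 0.15 to 1.36 ± 0.17, Ccn5 from 2.23 ± 0.28 to 3.26 ± 0.32, C4b from 1.18 ± 0.20 to 1.75 ± 0.22 and Nes from 0.37 ± 0.22 to 1.06 ± 0.24. Gpnmb (2.01 ± 0.29 and 1.88 ± 0.31), Clec7a (2.09 ± 0.38 and 2.06 ± 0.43) and Cd68 (1.23 ± 0.25 and 1.24 ± 0.28) had nearly the same estimates at both ages. The difference between the ages for Vim was 0.66 (95% interval 0.20 to 1.11, edgeR adjusted p = 0.9998). The genes with the smallest p of the age test were Prdm12, Scn10a, Tlx2, Gm13425, Tmem40 and Avil. Scn10a, a sodium channel of pain-sensing neurons, was at 91.3, 0.521, 4.75 and 40.4 in A315T at 14 weeks, and was also high in 2 WT libraries at 9 weeks (147 and 178) while the other 4 were at 0.755 to 2.20. The same libraries carried Prdm12, Tlx2, Avil and Gm13425.

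**Figure D5:**
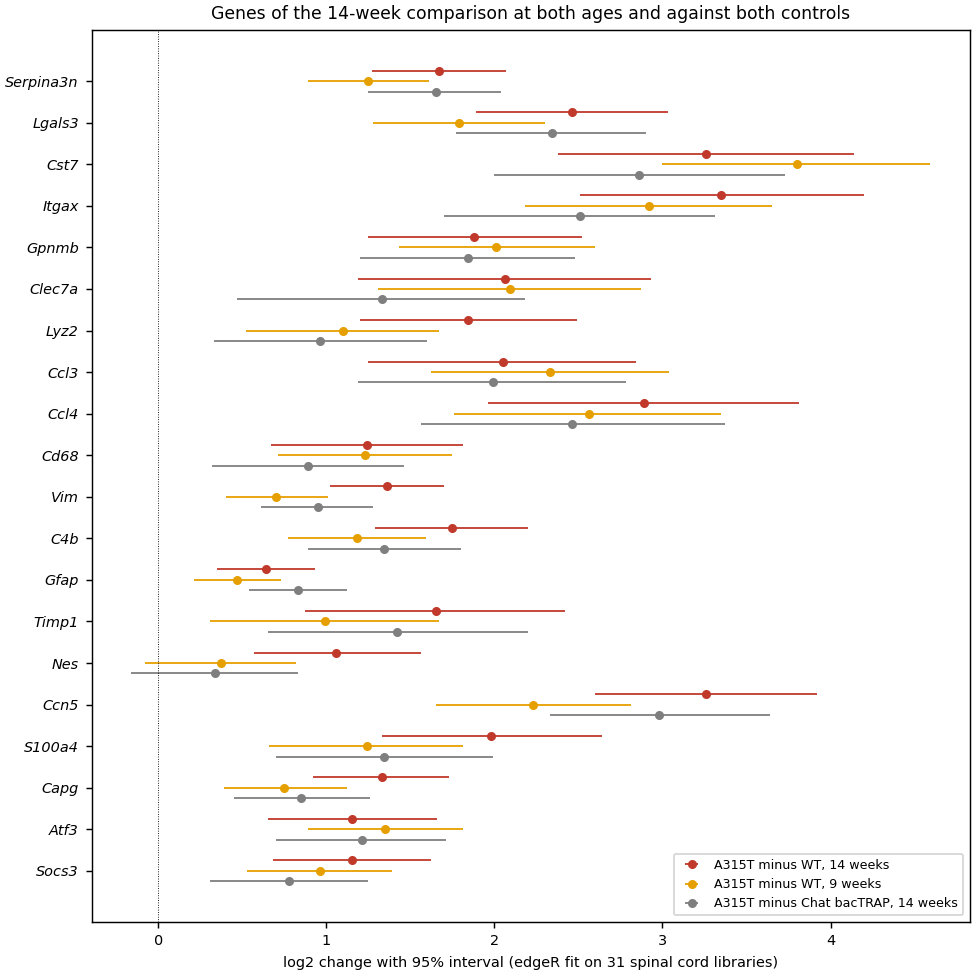
Log2 change with 95% interval for 20 genes in 3 comparisons of one edgeR fit on 31 spinal cord libraries: A315T minus WT at 14 weeks (red), A315T minus WT at 9 weeks (orange) and A315T minus Chat bacTRAP at 14 weeks (grey). All intervals lie above 0 except those of Nes at 9 weeks and against Chat bacTRAP, and Vim, Ccn5 and Lyz2 have their highest estimates in red.

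Against Chat bacTRAP at 14 weeks, which shares the A315T libraries and so is no independent test, 19 genes were higher in A315T (0.105%) and 11 lower (0.0605%), and WT differed from Chat bacTRAP in 1 gene (0.0055%), Gm13886. Serpina3n was 1.65 ± 0.19 above Chat bacTRAP and 1.67 ± 0.19 above WT on the log2 scale, Lgals3 2.34 ± 0.28 and 2.46 ± 0.28, and Ccn5 2.98 ± 0.32 and 3.26 ± 0.32. For other genes the control mattered more. Lyz2 was 0.96 above Chat bacTRAP (edgeR adjusted p = 0.158) and 1.84 above WT, Cnr2 0.95 and 2.16, Ms4a7 0.37 and 2.37, and Nes 0.34 and 1.06. The list medians moved in the same way, to 0.21 for disease-associated microglia (6 members called), 0.14 for reactive astrocytes (2 called) and -0.14 for interferon and antigen presentation (0 called), and those of WT minus Chat bacTRAP were -0.29, -0.51 and -0.64. Gfap was 0.83 above Chat bacTRAP (edgeR adjusted p = 0.00268). Among the lower genes, Upp2 was at -0.68, Clns1a at -0.80, Brwd1 at -0.64 and D230017M19Rik at -0.57 against Chat bacTRAP, each with an edgeR adjusted p below 0.05.

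In the MN-TRAP libraries of the same genotypes and age (A315T n = 4, WT n = 5), which were not tested, the markers overlapped or lay close together. Serpina3n was at 3150 ± 818 normalized counts (SD) in A315T and 3164 ± 1084 in WT, Lgals3 at 181 ± 41.3 and 122 ± 6.46, and Cst7 at 7.31 ± 5.30 and 5.42 ± 4.32. Serpina3n was not depleted in this fraction: it was at 2255 to 4935 in WT MN-TRAP and 1308 to 1825 in WT cord, and at 2045 to 4016 and 2991 to 8001 in A315T. Gfap was at 4183 to 13178 in WT MN-TRAP and 26686 to 34308 in WT cord. Which cells gave the Serpina3n RNA was not tested. Upp2 was at 263 to 627 in A315T and at 635 to 3543 in WT, and Clns1a at 1831 to 2600 and 2475 to 6371. Both WT maxima were in replicate 3. The groups also differed in glial RNA, with the oligodendrocyte gene Ermn at 917 to 1459 in A315T and 3552 to 11682 in WT replicates 1 to 4. The Upp2 and Clns1a values are therefore no replication of the falls in cord. Lamr1-ps1 was at 18.6 to 82.5 in the 4 A315T MN-TRAP libraries and at 0 in 4 of 5 WT libraries, but at 47.1 in the MN-TRAP library labelled WT replicate 5, which also had the highest Gm13886 value of the WT libraries (271, against 23.7 to 46.9). Without it the WT libraries ran from 739 to 3543 for Upp2, from 2875 to 6371 for Clns1a, from 2255 to 4935 for Serpina3n and from 116 to 133 for Lgals3. No cord library of the comparison showed such a mismatch.

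The genes that the study followed in motor neurons showed no call in whole cord. Syngr4, a member of the synaptogyrin family, was at 2.55 to 4.75 normalized counts in A315T and at 0 to 6.51 in WT and missed the filter on low counts. Plekhb1 was at 18609 to 20021 and 18702 to 28411 (log2 change -0.22 ± 0.11), Tia1, a stress granule protein, at 712 to 854 and 803 to 1328 (-0.52 ± 0.28), and Tex26 at 12.2 to 16.9 and 8.78 to 13.8 (0.46 ± 0.34). Mxd3, of the MYC-MAX network, was at 7.81 to 24.0 and 5.33 to 11.2 (0.68 ± 0.39), and Nhlh1, a neuronal helix-loop-helix factor, at 25.6 to 34.8 and 22.4 to 40.3 (-0.06 ± 0.22). All of these overlapped between the groups. The 95% intervals of the log2 change ran from -0.45 to 0.00 for Plekhb1, from -1.10 to 0.06 for Tia1, from -0.23 to 1.15 for Tex26, from -0.11 to 1.48 for Mxd3 and from -0.52 to 0.39 for Nhlh1.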

How the data were processed

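Spinal cord and MN-TRAP RNA of mice of 3 genotypes was sequenced after poly(A) selection. The count values deposited by the authors are whole reads per Ensembl gene of GRCm38, made with bcl2fastq2, STAR and featureCounts, and in the deposited signal values (normalized counts) each library is scaled by a size factor of its own. Both were used as they are. Depth was 37572334 to 76878108 counts in the 9 libraries compared. Groups came from the sample titles. Of 43629 gene IDs, 42462 had a symbol in GENCODE (GRCm38).

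Counts of 31 cord libraries in 6 groups were filtered with filterByExpr, scaled by TMM and fitted with edgeR 4.0.16 (glmQLFit, robust; R 4.3.3). Calls needed a Benjamini-Hochberg adjusted p below 0.05 and at least 2-fold. SEs, intervals (95%) and folds come from this fit. The code was tested on simulated data with known changes. P-values measure the spread between libraries, and the titles do not say that each is from a separate mouse. Named were the 3 markers, the 12 largest rises and falls among calls without overlap, the 12 smallest p, up to 4 members of each list, genes the study names and the 6 genes of smallest age p; others with an adjusted p below 0.05, Trem2, Tyrobp, Apoe, Lcn2, Malat1, Gabra6 and the like were chosen after their values were seen. Members and lists (31, and 2 added) were chosen with earlier results of these data known. Alternatives were DESeq2 1.42.0, limma-voom (limma 3.58.1), other library sets, median-ratio scaling, no filter, a replicate block and omission of each library. The replicate numbers did not pair the samples (r of same-numbered libraries -0.01, -0.28, 0.22 and 0). No 2 of the 9 libraries agreed within sampling noise. The study's own fold changes were not used, and some items are not reported here.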

Additional observations from a re-analysis of the deposited data

Results flagged for a closer look

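Within a group of 4 or 5 libraries, a value was flagged when it stood far from all others. The limit used is passed in about 1 of 20 groups only where values are independent and normally distributed. Counts are skewed and can tie at 0, genes can vary together, and some were named after their values were seen. The number of flags is therefore no test. Among the named genes, 252 groups of 4 or 5 libraries were examined and 24 values stood so far apart. WT replicate 3 gave 12: Apoe (43749), Cd68 (207), Cd74 (738), Fcrls (326), Gm37800 (1.78), Nes (164), Pdcd1 (2.96), Serpina3n (1825), Trem2 (469), Tyrobp (458), mt-Nd1 (226604) and mt-Nd2 (151920), all high. Without this library the comparison called 69 genes instead of 40.

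A315T replicate 1 gave 5: Cbln3 (664), Fat2 (106), Gabra6 (244), Pcp2 (333) and Tia1 (854). A315T replicate 4 gave Cnr2 (20.7), Tec (117) and Vim (4540), and A315T replicate 3 gave Calca (1729). The remaining values were Gabra6 (4.78) in WT replicate 2, Gm13425 (0.516) in WT replicate 4, and Nrxn3 (7320) in WT replicate 5. All values are normalized counts, and no explanation of them was tested.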

How the results depend on the processing

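All 40 called genes were higher in A315T. The count of called genes was 25 with the 14-week cord libraries alone, 25 (24 higher, 1 lower) with the 9 libraries alone, 5 with all 56 libraries of both fractions in 1 fit, 67 (61 higher, 6 lower) with DESeq2 and 355 (236 higher, 119 lower) with limma-voom and quality weights. Median-ratio scaling gave 40, no filter 38 and the adjusted p alone 58. Omission of single libraries gave 20 (without WT replicate 4) to 69 (without WT replicate 3), and 12 were left without A315T replicates 1 and 4, a setting added after the data were seen. Lamr1-ps1, Cst7, Ccn5, Lgals3 and Serpina3n kept their call in all 18 alternative fits, and Vim, Gm13886, S100a4, Capg, Itgax and C4b in all but that of 56 libraries. The cause of the differing counts was not tested. DESeq2 called 1 gene for the change with age, and omission of each single library gave 0. Nhlh1 changed sign with limma-voom (0.14) and without A315T replicate 3 (0.03), WT replicate 2 (0.05) or WT replicate 3 (0.01), with a range of -0.17 to 0.05 over omissions of single libraries, and Prdm12 without A315T replicates 1 and 4 (-0.06); neither was called.

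With the replicate number as a block, 29 genes were called, 28 of them among the 40; the numbers do not pair these samples, and 1 number of 4 had a same-number correlation above 0.1. Genes at a few counts, such as Mmp12 and Lamr1-ps1 in WT, have fold changes limited by depth.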
